A study of Mus musculus with 6 samples.

Results

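The Hivep family of mouse genes, Hivep1, Hivep2 and Hivep3, was described through the open chromatin around its 3 members in pc-BMACs, plasma cells and immature B cells of the bone marrow. ATAC-seq, which reads out open chromatin through the insertions of a transposase, gave 1 list of called peaks per library. Overlapping peaks (1 bp or more) of the 6 lists were joined into merged regions, and a region belonged to the family when no protein-coding gene lay nearer than one of the 3 genes, up to 100 kb away (RefSeq, mm10). This gave 99 of the 69171 merged regions: 51 at Hivep3, 22 at Hivep1 and 26 at Hivep2. The regions were chosen by called peaks and their position, and the family was taken up with the many pc-BMAC calls at Hivep3 already known. The call patterns therefore describe these libraries, and no test is given for them.

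HIVEP proteins, also called Schnurri or ZAS proteins, are very large transcription factors with separate pairs of C2H2 zinc fingers that bind kappa B-like DNA sequences, the sites that NF-kB also uses. Hivep1, known in humans as MBP-1 or PRDII-BF1, was identified through its binding to the kappa B elements of the interferon beta and MHC class I enhancers. Hivep2, or Schnurri-2, restrains NF-kB in mouse T cells and works with SMAD proteins downstream of BMP signals. Hivep3, or Schnurri-3, was cloned as a protein that binds kappa B sites and V(D)J recombination signals, interacts with TRAF2, and limits bone formation in mice through the E3 ligase WWP1 and the factor RUNX2.

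All 3 populations came from the marrow of naive Adig mice, a Balb/c strain here. Its transgene expresses Igrp and GFP under control of Aire, the thymic autoimmune regulator, so GFP stands for activity of that transgene. The pc-BMACs belong to the bone marrow-resident antigen presenting cells that the study set out to compare. By flow sorting, pc-BMACs were AireGFP+B220-CD138+TACI+, plasma cells AireGFP-B220-CD138+TACI+ and immature B cells AireGFP-B220+CD138-TACI-IgM+. Each population had 2 libraries of 2000 to 15000 sorted cells, and the labels do not say whether these came from separate animals. The lists held 38607 and 34070 peaks for pc-BMACs, 37821 and 36723 for plasma cells, 51643 and 46534 for immature B cells. In such sorted bulk samples, fewer cells with an open site and less opening per cell cannot be told apart. The lists carry no read counts, so depth is unknown and a region without a call is not shown to be closed.

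The promoters of the 3 genes, taken at 1 RefSeq start site each, lay in regions that every library called. The sequences below, from RefSeq (GRCm38.p6), run from 250 bases before to 50 bases after the start site on the plus strand and show how unlike the 3 promoters are in composition. Capitals mark CAGGTG, the sequence bound by E proteins such as E2A, on either strand. They lie at chr13:42051771-42052070 for Hivep1, chr10:13966129-13966428 for Hivep2 and chr4:119814428-119814727 for Hivep3.
Hivep1: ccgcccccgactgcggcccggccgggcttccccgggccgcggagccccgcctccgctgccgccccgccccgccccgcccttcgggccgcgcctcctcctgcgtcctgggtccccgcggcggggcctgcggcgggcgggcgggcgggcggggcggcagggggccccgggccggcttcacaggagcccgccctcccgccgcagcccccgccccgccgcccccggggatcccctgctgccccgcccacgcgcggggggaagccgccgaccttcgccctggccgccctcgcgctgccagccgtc
Hivep2: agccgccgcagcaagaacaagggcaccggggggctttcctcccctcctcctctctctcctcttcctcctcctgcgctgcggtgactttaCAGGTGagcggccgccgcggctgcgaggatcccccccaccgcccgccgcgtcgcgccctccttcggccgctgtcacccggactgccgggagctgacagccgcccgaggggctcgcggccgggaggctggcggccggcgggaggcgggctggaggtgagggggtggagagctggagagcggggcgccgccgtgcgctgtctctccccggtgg
Hivep3: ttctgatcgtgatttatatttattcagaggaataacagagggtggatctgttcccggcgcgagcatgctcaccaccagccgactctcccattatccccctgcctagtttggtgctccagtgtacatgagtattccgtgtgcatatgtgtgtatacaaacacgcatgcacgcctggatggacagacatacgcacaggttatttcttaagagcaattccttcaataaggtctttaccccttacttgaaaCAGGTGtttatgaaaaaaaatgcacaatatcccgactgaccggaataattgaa

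The Hivep1 promoter is 87.0% G and C with 48 CpG dinucleotides, and the Hivep2 promoter 75.3% with 35. The Hivep3 promoter is 44.3% G and C with 11 CpG. Over the 32817 RefSeq promoters of the same length the medians are 52.7% and 7 CpG, and 0.0213%, 3.34% and 78.9% of them have a higher G and C content than Hivep1, Hivep2 and Hivep3. CAGGTG occurs in the Hivep2 promoter at positions 90 to 95, counted from the first base printed, and in the Hivep3 promoter at positions 248 to 253, which span the start site. It is found in 20.2% of all promoters. Neither strand of the 3 promoters holds GGGACTTTC, GGGATTTCC or GGGAATTTC (kappa B; 0.353%, 0.323% and 0.259% of all promoters), TGACTCA (AP-1; 5.20%), GGAANTGAA (ETS-IRF composite; 2.35%), GAAANNGAA (IRF; 8.55%), CCGGAAGT (ETS; 3.89%), TGTGGTT (RUNX; 5.27%), TGACGTCA (CRE; 1.79%) or CTATTTATA (MEF2; 0.430%). These kappa B words are narrow. The wider degenerate kappa B consensus, added after the sequences had been seen, matches ggggatcccc in the Hivep1 promoter at positions 221 to 230 on both strands, and ggggctttcc in the Hivep2 promoter at positions 30 to 39 on the plus strand. It has no match in the Hivep3 window and at least 1 in 4.5% of all promoters. The composite and IRF patterns can overlap each other. These letter matches cover the printed windows only and say nothing about binding.

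The sorted populations carried calls at their own markers. Regions called in both libraries were found at 8 of 8 plasma cell genes in pc-BMACs, 8 in plasma cells, compared with 7 in immature B cells, and at 5, 7 and 8 of 8 immature B cell genes in the same order of populations. So the populations overlapped in both lists. Plasma cells 1 stood apart with a region at 8 of 8 erythroid genes, against 4 in plasma cells 2, 4 and 3 in pc-BMACs 1 and 2 and 4 in each immature B cell library. Regions of T, NK and innate lymphoid genes were called at 4 and 3 of 8 genes in pc-BMACs, against 5 in each plasma cell library and 5 in each of immature B cells. Monocyte, macrophage and neutrophil genes had calls at 5 and 5 of 8 in pc-BMACs, 5 and 6 in plasma cells, compared with 4 and 4 in immature B cells, and plasmacytoid dendritic genes at 4 of 6 in every library. The part of other cells in the results below was not tested, and only some of the counts that rest on plasma cells 1 are also given without it.

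Hivep3 had more called regions in pc-BMACs than in the other populations, and 12 of its regions, all small, were called there alone. Of its 51 regions, 40 and 34 were called in the pc-BMAC libraries 1 and 2, 21 and 17 in those of plasma cells, and 28 and 20 in those of immature B cells. Both pc-BMAC libraries were above all 4 others. Mean numbers were 37.0 ± 4.24 for pc-BMACs, 19.0 ± 2.83 in plasma cells, compared with 24.0 ± 5.66 in immature B cells (SD, n = 2 each), or 72.5%, 37.3% and 47.1% of the 51. Over all 69171 regions these shares were 51.0% in pc-BMACs, 51.1% in plasma cells, compared with 69.4% in immature B cells, so the order at Hivep3 is not that of the lists as a whole. With 2 libraries a population, an exact two-sided test over libraries cannot go below p = 0.333, and none is given.

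Both pc-BMAC libraries and no other library called 12 of the 51 Hivep3 regions (23.5%). This pattern covered 4.42% of all merged regions. Because the gene was singled out for its pc-BMAC calls, the 2 shares are set side by side and nothing is read from the gap. No other gene of the 15196 with a region had as many, a rank that goes with the choice of the gene and adds no support. Hivep3 ranked 9 by its total number of regions. Among the 353 genes with at least 20 regions the median share of such regions was 4.76%, and 7 genes had a larger share than Hivep3. No Hivep3 region was called in both plasma cell libraries alone, a pattern of 1.5% of all regions, and 2 were found in immature B cells alone, in both libraries, a pattern of 14.3%. The count of 12 was 13 without plasma cells 1 and 17 without pc-BMACs 2.

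**Figure D1:**
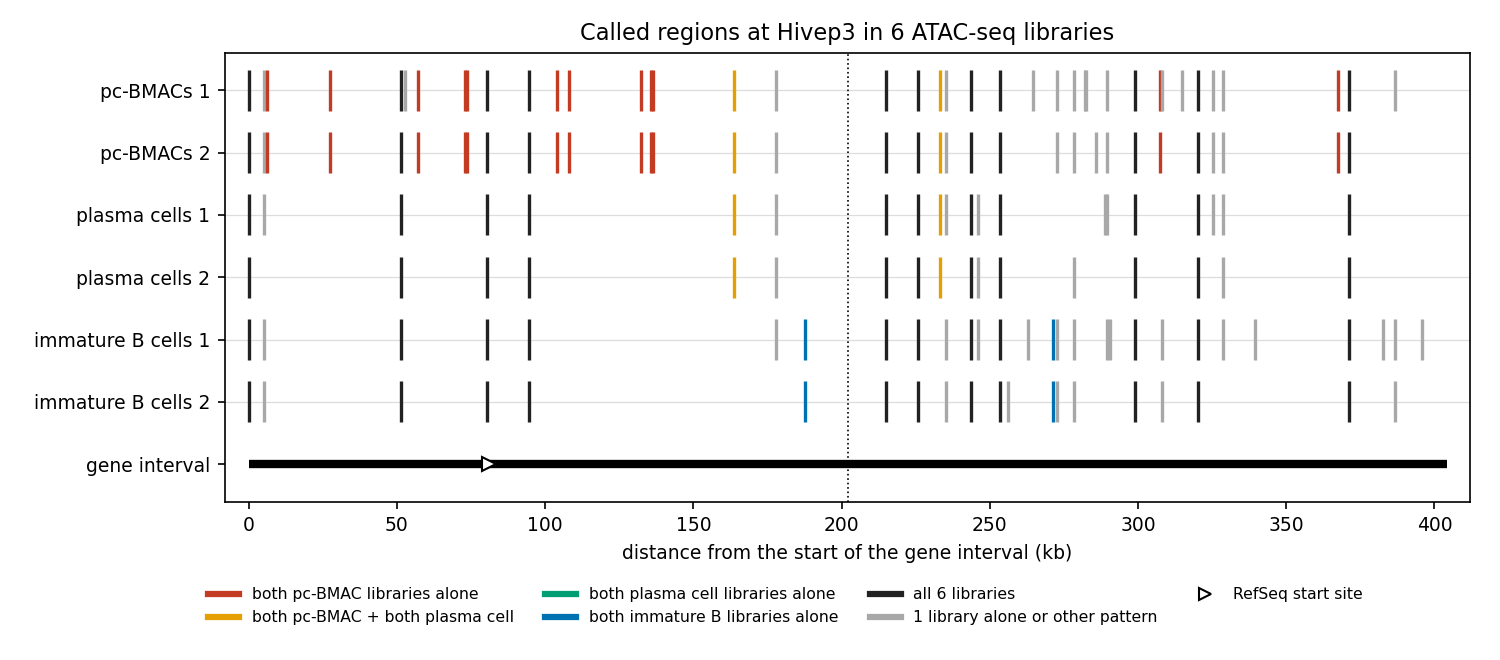
Called regions at Hivep3, drawn at the distance of their centre from the start of the gene interval (x axis, kb), 1 row per library. Bars have a fixed width and are not to scale; colours give the libraries that call a region, and the dotted line is the midpoint of the gene. The 10 red pc-BMAC regions before the midpoint stand between 6.0 and 136.5 kb.

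The pc-BMAC regions of Hivep3 lay mostly in the upstream part of the gene. The gene interval runs over 404 kb of chromosome 4 (119733759 to 120138045, plus strand), all 51 regions overlapped it, and the RefSeq start site used here stands 80.9 kb into it. The start of the interval lies in another region that all 6 libraries called, chr4:119733251-119734534. A promoter at the interval start was not looked at. Before the midpoint there were 10 pc-BMAC-alone regions among 19, and after it 2 among 32. The 10 fell within 131 kb, from chr4:119739599 to 119870439, on both sides of the start site. That stretch held 14 regions in all, of which pc-BMACs 1 and 2 called 14 and 13, and each of the other 4 libraries called 3. The 3 are the regions that all 6 libraries shared, and the remaining region was called in pc-BMACs 1 only. The stretch was drawn from the first to the last of the 10, so most of this contrast was set by its choice. The split at the midpoint was chosen after the positions were seen. The table of genes gives no exons, so intron, exon and UTR positions are not stated.

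These 12 regions were small. In pc-BMACs 1 their peaks were 188 to 498 bp wide (median 309.5) and in pc-BMACs 2 150 to 373 bp (median 259), where 150 bp is the least width in any list. At the 11 Hivep3 regions called in all 6 libraries the peaks of the same libraries had medians of 1220 and 1092 bp. The pc-BMAC-alone peaks stood at a median percentile of 28.2 and 22.1 among the widths of their own lists. The widest in pc-BMACs 1 was chr4:119869069-119869566, with 498 bp there and 210 bp in pc-BMACs 2, followed downstream by chr4:119870030-119870439 with 361 and 362 bp. The pair chr4:119806672-119806909 and chr4:119807409-119807724, upstream of the start site, had 238 and 193 bp and 316 and 289 bp. The others before the midpoint began at 119739599, 119760916, 119790687, 119837644, 119841665 and 119865913, and the last held the widest peak in pc-BMACs 2, 373 bp. After the midpoint chr4:120040944-120041271 had 328 and 286 bp, and chr4:120101240-120101471 had 188 and 232 bp. In each of these libraries all 12 peaks were narrower than that library's median at the shared regions.

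At the regions that every population had, Hivep3 peaks were also wider in pc-BMACs than in plasma cells. Width here is the number of bases of a region that a library's peaks covered, added up where it had more than 1 peak. Widths were ranked within each library among its 20468 regions called in all 6 libraries, since the lists differ in overall peak width. In 8 of the 11 Hivep3 regions both pc-BMAC ranks were above both plasma cell ranks, and in 0 of 11 the opposite held. The same patterns covered 23.3% and 32.5% of the 20468 regions. The median rank of the 11 regions was at percentile 68.3 and 69.8 in pc-BMACs, 54.9 and 52.4 in plasma cells, compared with 72.7 and 54.3 in immature B cells. This is the contrast that drew attention to the gene, so it is a description and carries no test.

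Single regions show how the populations differed there. At the promoter region chr4:119812354-119815890 the peaks covered 3537 and 1728 bp in pc-BMACs, 1515 and 1380 bp in plasma cells, compared with 991 and 995 bp in immature B cells, with no overlap between any populations. At chr4:119976102-119978485, inside the downstream part of the gene, they covered 2384 and 2247 bp in pc-BMACs, 775 and 732 bp in plasma cells, compared with 2223 and 744 bp in immature B cells. There 1 immature B cell library was near the pc-BMACs and the other near the plasma cells. At chr4:119828130-119828776 the values were 647 and 467 bp in pc-BMACs, 150 and 244 bp in plasma cells, compared with 346 and 236 bp in immature B cells, and the pc-BMAC libraries were the wider. In base pairs both pc-BMAC peaks were wider than both plasma cell peaks in 49.9% of all regions called in all 6 libraries. Both pc-BMAC peaks were wider than both immature B cell peaks in 17.9%. Both plasma cell peaks were wider than both immature B cell peaks in 6.85%. Of the 11, only chr4:120052699-120054964 had wider peaks in immature B cells (2266 and 1794 bp) than in pc-BMACs (1691 and 1335 bp) by ranks in both libraries.

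**Figure D2:**
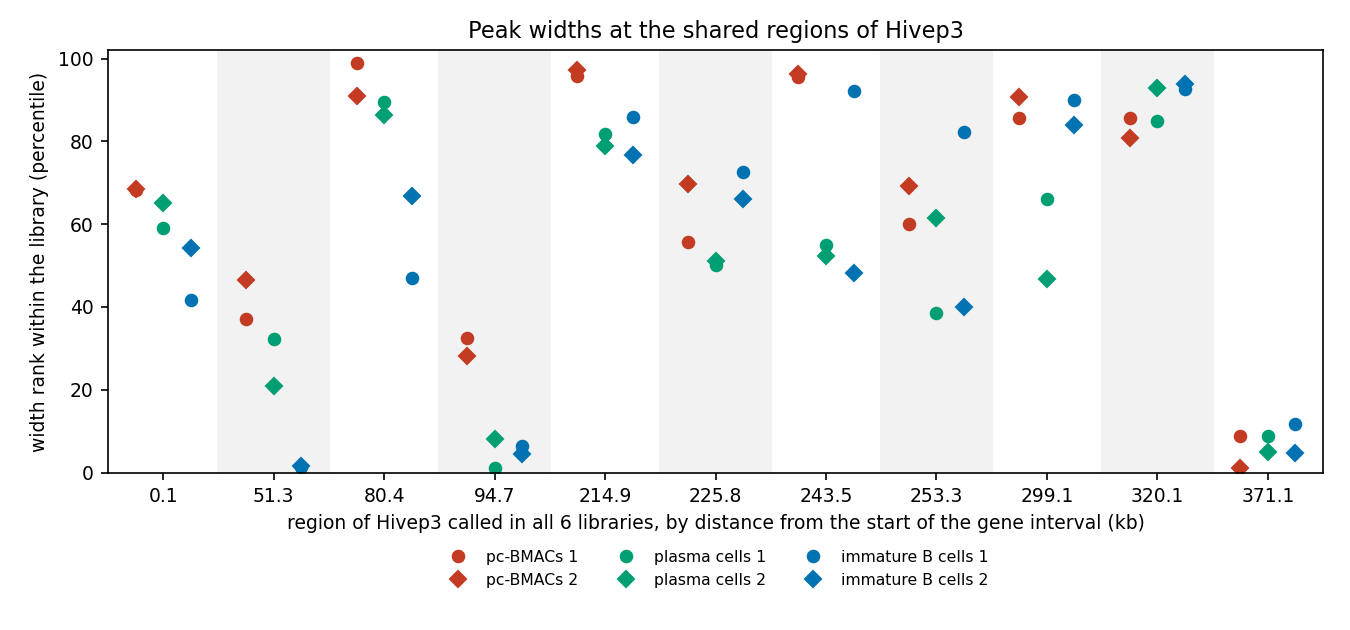
Peak width at the 11 Hivep3 regions called in all 6 libraries, as a percentile rank within each library (y axis), by distance of the region from the start of the gene interval (x axis, kb, not to scale). Where a library had more than 1 peak in a region, their widths were added up. Each point is 1 library, and in the 4 regions before the midpoint both pc-BMAC points lie above the points of both other populations.

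Hivep3 also shared regions with single populations. Both pc-BMAC and both plasma cell libraries, but no immature B cell library, called 2 regions (3.92%, near the 3.66% of all regions). At chr4:119896958-119897931 the peaks were 702 and 754 bp in pc-BMACs against 974 and 843 bp in plasma cells, and at chr4:119966400-119967342 they were 930 and 803 bp against 150 and 426 bp. Both immature B cell libraries alone called chr4:119921005-119921450 (352 and 446 bp) and chr4:120004765-120005368 (604 and 250 bp). The region chr4:120006084-120006597 was called in both pc-BMAC and both immature B cell libraries and in no plasma cell library, a pattern of 1.06% of all regions. Both plasma cell libraries and immature B cells 1, but no pc-BMAC library, called chr4:119978965-119980516. The other regions were 13 called in 1 library alone, of which 5 were in pc-BMACs 1 and 5 in immature B cells 1, and 9 more of mixed patterns.

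Hivep1, like Hivep3, had most calls in pc-BMACs, and 3 of its regions were called in pc-BMACs and plasma cells but not in immature B cells. Of 22 regions, 17 and 14 were called in pc-BMACs, 11 and 10 in plasma cells, compared with 10 and 9 in immature B cells. The means were 15.5 ± 2.12, 10.5 ± 0.707 and 9.50 ± 0.707 regions in that order of populations (SD, n = 2 each), and the pc-BMAC libraries did not overlap the others. As shares of the 22 these were 70.5%, 47.7% and 43.2%, beside 51.0%, 51.1% and 69.4% over all regions. The gene covers 133 kb of chromosome 13 (42051899 to 42185030, plus strand), with 15 regions inside it and 7 upstream of it. All 6 libraries called 6 regions (27.3%, against 29.6% of all regions). They include the promoter region chr13:42050692-42054047, with 3356 and 2731 bp in pc-BMACs, 2746 and 2609 bp in plasma cells, compared with 2910 and 2418 bp in immature B cells, and the populations overlapped.

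Both pc-BMAC and both plasma cell libraries, without either immature B cell library, called 3 Hivep1 regions (13.6%, against 3.66% of all regions). They lay inside the gene, 25.5, 42.0 and 58.6 kb from its start. At chr13:42076920-42077917 the peaks covered 998 and 816 bp in pc-BMACs, against 316 and 298 bp in plasma cells. The 816 bp of pc-BMACs 2 are the sum of 2 separate peaks. At chr13:42110109-42110973 they were 865 and 460 bp in pc-BMACs, against 150 and 234 bp in plasma cells. In both regions the pc-BMAC peaks covered more base pairs. Among all regions called in all 6 libraries, which leaves these out, that order held in 49.9% and the reverse in 8.96%. At chr13:42093631-42094087 the widths were closer, 401 and 432 bp in pc-BMACs against 276 and 356 bp in plasma cells.

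Both pc-BMAC libraries alone called 2 Hivep1 regions (9.09%, beside 4.42% of all regions), chr13:42065653-42066000 inside the gene (348 and 304 bp) and chr13:42015558-42016002, 36.1 kb upstream of its start (445 and 321 bp). Both immature B cell libraries alone also called 2 (9.09%, beside 14.3% of all regions), chr13:41955611-41955914 and chr13:41958303-41958612, which are the members farthest from the gene. The outermost lies 96.0 kb from the gene, just inside the limit of 100 kb. The next region beyond, called in 1 library, lies 103 kb away and was not a member. No Hivep1 region was called in both plasma cell libraries alone, a pattern of only 1.5% of all regions. The other 9 regions were 7 called in 1 library alone, of which 4 were in pc-BMACs 1, and 2 of mixed patterns.

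Hivep2 differed from the other members and had the order of all regions. Its calls were most frequent in immature B cells and equal on average in pc-BMACs and plasma cells. Of 26 regions, 17 and 13 were called in pc-BMACs, 14 and 16 in plasma cells, compared with 20 and 18 in immature B cells. The means were 15 ± 2.83, 15 ± 1.41 and 19.0 ± 1.41 regions in that order (SD, n = 2 each). As shares of the 26 these were 57.7%, 57.7% and 73.1%, beside 51.0%, 51.1% and 69.4% over all regions. The immature B cell libraries were above the other 4, as they were over all regions, so this order is not particular to Hivep2. The gene covers 190 kb of chromosome 10 (13961609 to 14151378, plus strand), with 20 regions inside it, 1 upstream and 5 downstream. All 6 libraries called 7 regions (26.9%, against 29.6% of all regions), with the promoter region chr10:13964093-13968546 as the widest region of the family. There the peaks covered 4279 and 3691 bp in pc-BMACs, 3464 and 4143 bp in plasma cells, compared with 4433 and 4181 bp in immature B cells.

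No Hivep2 region was called in both pc-BMAC libraries alone, a pattern of only 4.42% of all regions. Both immature B cell libraries alone called 4 (15.4%, near the 14.3% of all regions). Of these, chr10:14055189-14056132 had the widest peaks, 944 and 578 bp, and chr10:13998847-13999145, chr10:14016341-14016645 and chr10:14233401-14233712 had peaks of 150 to 312 bp. The last lay 82.0 kb beyond the end of the gene. Both pc-BMAC and both plasma cell libraries, without immature B cells, called 2 regions (7.69%, beside 3.66% of all regions). Of these, chr10:14057005-14058697 had 1693 and 963 bp in pc-BMACs against 979 and 890 bp in plasma cells, and chr10:14050365-14051014 had 614 and 394 bp against 307 and 265 bp. Region chr10:14055189-14056132, of immature B cells, lies between that pair. The only region of the family called in both plasma cell libraries alone was chr10:14211620-14211775, downstream of Hivep2, at the least width of 150 bp in both. This pattern covered 1.01% of the family and 1.5% of all regions. The other 12 regions were 4 called in 1 library alone and 8 of mixed patterns. No region of the family was called in all 4 libraries of plasma cells and immature B cells and in no pc-BMAC library, a pattern of 4.88% of all regions.

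**Figure D3:**
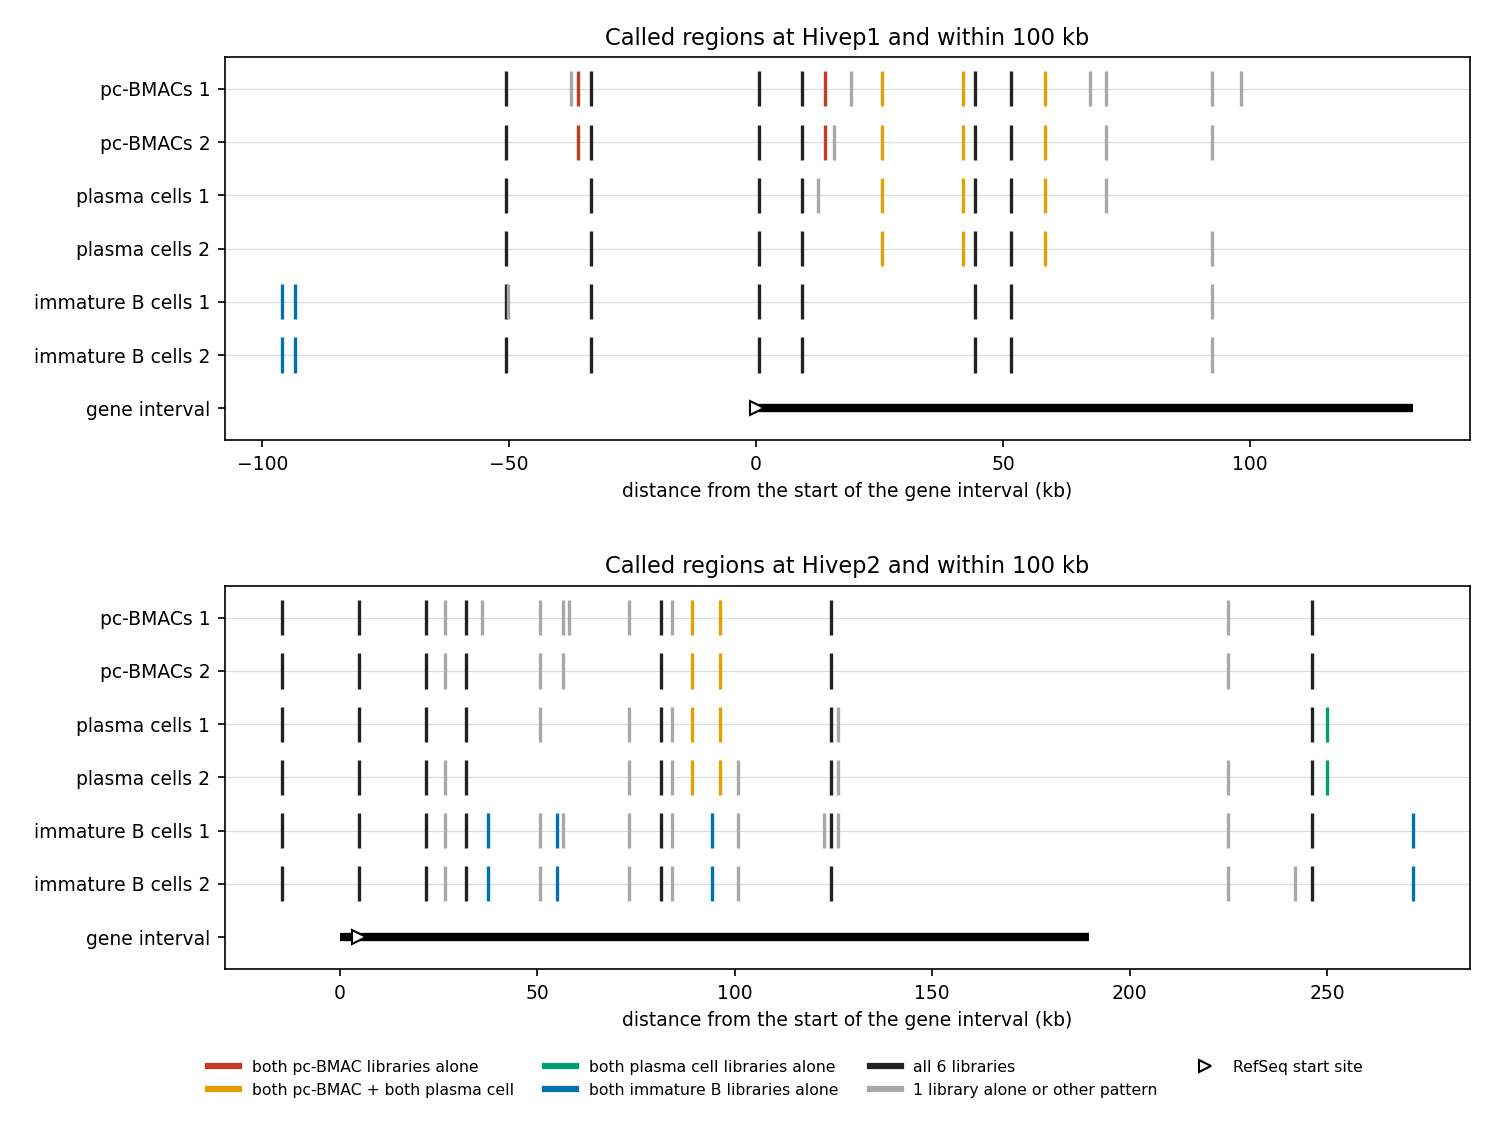
Called regions at Hivep1 (upper panel) and Hivep2 (lower panel), by distance of their centre from the start of the gene interval (x axis, kb), 1 row per library. Bars have a fixed width and are not to scale; Hivep1 shows 3 regions of pc-BMACs and plasma cells (orange) inside the gene, and Hivep2 shows 4 of immature B cells alone (blue).

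Set pair by pair, the family had more regions called in pc-BMACs and not in plasma cells than the reverse. Of 82 regions called in any of the 4 libraries, 16 (19.5%) were in both pc-BMAC and neither plasma cell library, and 3 (3.66%) in both plasma cell and neither pc-BMAC library. Over all 50108 regions of this comparison the shares were 8.42% and 9.46%. Hivep3 gave 13 and 1 of these regions, Hivep1 2 and 0, and Hivep2 1 and 2, and 33 regions were called in all 4 libraries. The difference of these counts was 12 for Hivep3 and 19 without pc-BMACs 2, and 2 for Hivep1 and 5 and 6 without pc-BMACs 1 and 2. The 16 were 22 without plasma cells 1, the library with erythroid calls, and 29 without pc-BMACs 2. The 3 were 5 without pc-BMACs 1, without plasma cells 2 or without immature B cells 1. For Hivep2 the difference of -1 was 1 without pc-BMACs 2 or plasma cells 2 and -3 without pc-BMACs 1.

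Between pc-BMACs and immature B cells the balance was on the same side. Both pc-BMAC and neither immature B cell library called 23 of 96 regions (24.0%, against 10.3% of all 65904 regions), and the reverse held for 9 (9.38%, against 24.1%). Hivep3 gave 15 and 2, Hivep1 6 and 2, and Hivep2 2 and 5. The difference was 13 for Hivep3 and 7 without immature B cells 2, and 4 for Hivep1 and 8 without pc-BMACs 2. For Hivep2 it was -3, with -1 without pc-BMACs 2 and -5 without immature B cells 2. The 9 were 15 without pc-BMACs 1, 14 without immature B cells 1 and 18 without immature B cells 2. This comparison shares its pc-BMAC libraries with the one against plasma cells, so the 2 are not separate evidence.

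Between plasma cells and immature B cells the counts were 8 and 11. Both plasma cell and neither immature B cell library called 8 of 72 regions (11.1%, against 6.35% of all 62084 regions), and the reverse held for 11 (15.3%, against 19.0%). Hivep1 gave 3 and 2 regions, Hivep2 3 and 4, and Hivep3 2 and 5. The difference was -3 for Hivep3, with -8 without immature B cells 2 and -5 without plasma cells 1. For Hivep2 it was -1, with -4 without plasma cells 2, -3 without immature B cells 2 and -2 without plasma cells 1 or immature B cells 1. For Hivep1 it was 1, with 2 without plasma cells 2 and 0 without pc-BMACs 1 or immature B cells 2. The 11 were 19 without immature B cells 2.

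**Figure D4:**
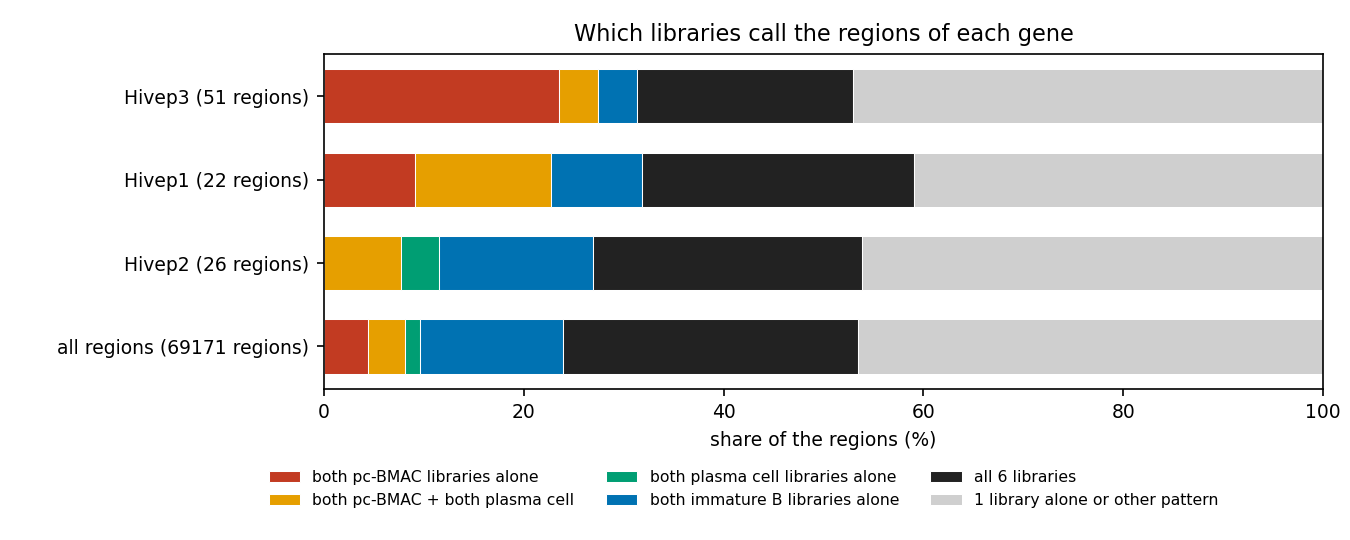
Share of the regions of each gene and of all merged regions (x axis, %) by the libraries that call them. The red part, called in both pc-BMAC libraries alone, is 23.5% at Hivep3, 9.09% at Hivep1 and 0% at Hivep2, and 4.42% over all regions.

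Of the 24 family regions called in all 6 libraries, 11 ranked wider in both pc-BMAC than in both plasma cell libraries and 3 ranked narrower, beside 23.3% and 32.5% of all such regions. In base pairs these were 16 and 0, beside 49.9% and 8.96% of all such regions. Hivep3 gave 8 of the 11, Hivep2 2 and Hivep1 1. Against immature B cells, 9 ranked wider in pc-BMACs and 1 narrower, where 28.0% and 27.3% of all such regions did so. Between plasma cells and immature B cells 7 ranked wider in plasma cells and 4 wider in immature B cells, against 29.3% and 24.7% of all such regions. In base pairs instead of ranks this last split turned to 3 and 9, so no order of these populations is given. Leaving out 1 library gave 11 to 16 wider and 3 to 7 narrower regions for pc-BMACs against plasma cells, with 7 narrower without plasma cells 1, 6 without pc-BMACs 2 and 5 without pc-BMACs 1 or plasma cells 2. Against immature B cells it gave 9 to 16 wider, with 16 without pc-BMACs 1 and 14 without immature B cells 2, and 1 to 6 narrower, with 6 without pc-BMACs 2 or immature B cells 2, 3 without pc-BMACs 1 or immature B cells 1 and 2 without plasma cells 2. For plasma cells against immature B cells it gave 7 to 12 wider, with 12 and 11 without immature B cells 2 and 1, and 4 to 10 narrower, with 10 without plasma cells 2 or immature B cells 2 and 7 without immature B cells 1.

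Of the regions called in either library of a replicate pair, both called 74.5% to 77.6% over the family and 76.3% to 77.0% over all regions. At Hivep3 this share was 80.5% for pc-BMACs, 72.7% for plasma cells and 65.5% for immature B cells, where 19 of 29 regions were called in both. At Hivep1 it ranged from 72.2% to 90.0% and at Hivep2 from 76.5% to 81.0%. Across populations the share at Hivep3 was 45.7% for pc-BMACs and plasma cells (39.0% to 52.8% over 4 pairs), where all regions gave 60.1% (58.2% to 62.0%). At Hivep1 it was 63.1% (55.6% to 71.4%) and at Hivep2 62.0% (58.8% to 65.0%). Between pc-BMACs and immature B cells the means were 40.1% at Hivep3, 39.2% at Hivep1, 51.0% at Hivep2 and 43.2% over all regions. The pairs share libraries and are given as a description.

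Genes with a like pattern of calls were sought by the Euclidean distance between the shares, as fractions, of a gene's regions called in each of the 6 libraries, over the 353 genes with at least 20 regions. For Hivep3 the nearest was Cacna1e, which encodes a voltage-gated calcium channel subunit (distance 0.116, 46 regions), then Bbs9, Slc44a1, Sik3 and Dennd5b (0.149 to 0.177). Cacna1e had 73.9% and 65.2% of its regions called in pc-BMACs, 39.1% and 26.1% in plasma cells, compared with 47.8% and 37.0% in immature B cells. For Hivep1 the nearest were Slc44a1, Cacna1d, Tnrc6b, Dgkg and Umad1 (0.105 to 0.133), and for Hivep2 Usp6nl, Camk2d, Rcsd1, Gse1 and Susd1 (0.0678 to 0.103). Hivep1 was number 7 among the genes most like Hivep3 (0.181), and Hivep2 number 216 (0.528). The shares move with the length of the lists, and the libraries are 6.

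**Figure D5:**
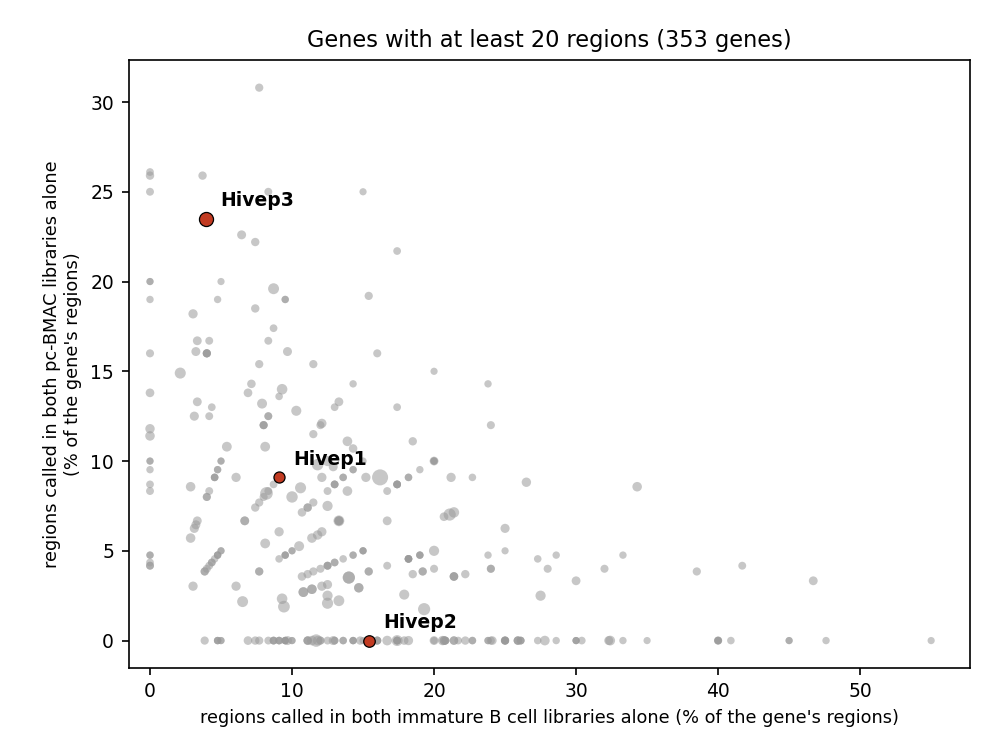
Each point is 1 of the 353 genes with at least 20 regions, by the share of its regions called in immature B cells alone, by both libraries (x axis, %) and in both pc-BMAC libraries alone (y axis, %); point area grows with the number of regions. Hivep3 stands at 3.92% and 23.5%, Hivep1 at 9.09% on both axes and Hivep2 at 15.4% and 0%.

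The genes next to the family had 0 or 1 region that both pc-BMAC libraries and no other library called. This pattern covered 4.42% of all regions. With 1 to 23 regions each, such low counts can be had at that share, and no contrast with Hivep3 is drawn. Guca2b, 74.8 kb upstream of Hivep3, and Edn2, 23.2 kb downstream, had 4 and 2 regions, 0 of them called in both pc-BMAC libraries alone. Both Edn2 regions were called in pc-BMACs 2 and in no other library. The next regions outside Hivep3 lay 41.2 kb upstream and 23.2 kb downstream and belonged to these genes. At Hivep1, Adtrp had 1 such region of 23 and the endothelin gene Edn1 1 of 12, and Edn1 had 5 of immature B cells alone. At Hivep2, Aig1 and Adgrg6 had 3 and 1 regions and 0 called in both pc-BMAC libraries alone, and 1 of the Aig1 regions was called in pc-BMACs 2 only.

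Genes of the pathways in which HIVEP proteins act were counted in the same way. Of all regions in that comparison, 8.42% were called in pc-BMACs and not in plasma cells and 9.46% the other way. The share of all regions called was 54.7% and 47.4% in pc-BMACs, 51.8% and 50.5% in plasma cells, compared with 74.1% and 64.8% in immature B cells. Most calls in immature B cells is therefore the order of all regions. For 20 NF-kB and TRAF genes, 9 of 114 regions (7.89%) were called in pc-BMACs and not in plasma cells and 4 (3.51%) the other way. Of these genes 3 had more of the first kind, 2 more of the second, and 15 as many of each. Nfkb1, the p105/p50 subunit, had 16 and 13 of 22 regions called in pc-BMACs, 11 and 7 in plasma cells, compared with 13 and 12 in immature B cells, and 3 regions were called in both pc-BMAC libraries alone. Tnfaip3, the NF-kB inhibitor A20, had 13 and 13 of 21 in pc-BMACs, 14 and 13 in plasma cells, compared with 19 and 18 in immature B cells. Nfkbiz, an atypical I kappa B protein, had 11 and 8 of 18 in pc-BMACs, 8 and 7 in plasma cells, compared with 12 and 9 in immature B cells. Traf3, a signalling adaptor, had 13 and 7 of 17 in pc-BMACs, 5 and 6 in plasma cells, compared with 7 and 7 in immature B cells, so its pc-BMAC libraries differed by 6 regions.

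The 23 genes of BMP, SMAD and AP-1 partners, of which 21 had a region, held 10 of 140 regions (7.14%) called in pc-BMACs and not in plasma cells and 13 (9.29%) the other way, with 3 genes on either side and 15 level. Smad3, a signal transducer of TGF-beta receptors, had 13 of 22 regions called in each pc-BMAC library, 14 and 12 in plasma cells, compared with 13 and 12 in immature B cells. Runx2, the bone and plasmacytoid dendritic cell factor whose turnover Hivep3 promotes in mouse osteoblasts, had 6 and 9 of 17 in pc-BMACs, 14 and 13 in plasma cells, compared with 12 and 11 in immature B cells. It had 0 regions called in pc-BMACs and not in plasma cells and 4 the other way. A relation of these calls to those at Hivep3 was not tested. Fos, an AP-1 subunit, had 9 and 9 of 15 in pc-BMACs, 7 and 9 in plasma cells, compared with 15 and 11 in immature B cells.

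Of 18 other large zinc finger factors by name, 17 were in the gene table. Of those, 16 had a region, and 13 of 149 regions (8.72%) were called in pc-BMACs and not in plasma cells against 16 (10.7%) the other way. Of these genes 3 had more of the first kind, 6 more of the second and 7 were level. Zbtb20, a factor of long-lived plasma cells, had most calls in pc-BMACs, with 27 and 20 of its 37 in pc-BMACs, 15 and 15 in plasma cells, compared with 14 and 10 in immature B cells. Bcl11a, a factor of early B cells, had most calls in immature B cells, as did all regions. It had 10 and 7 of 30 in pc-BMACs, 12 and 13 in plasma cells, compared with 28 and 21 in immature B cells. Ikzf1, which encodes Ikaros, had 20 and 15 of 32 in pc-BMACs, 16 and 15 in plasma cells, compared with 23 and 20 in immature B cells. Zeb2, a repressor active in several immune lineages, had 14 and 7 of 25 in pc-BMACs, 10 and 7 in plasma cells, compared with 16 and 13 in immature B cells.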

How the data were processed

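ATAC-seq peak lists of 6 libraries were used, 2 each from pc-BMACs, plasma cells and immature B cells. The submitters' processing notes name Bowtie2 2.3.3, HOMER 4.10, bedtools and mm10, with no role for any; peak calling settings: not given in the sources used here. A score of 1000 stands in every row of the deposited lists and was not used. Deposited peaks are at least 150 bp wide and carry no read counts, so depth is unknown and only presence and width could be compared. The labels' protocols name more than 1 sequencing platform and tie no library to one.

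Peaks were merged and assigned with pandas 2.3.3 on Python 3.11.15 (0 of the 99 regions tied between genes), steps that were tested on simulated data. A library called a region when at least 1 bp of a peak lay in it. No genome sequence was used, so motifs were searched in RefSeq promoters only (the kappa B consensus is the HIVEP and NF-kB site with degenerate letters). The members and lists were chosen with earlier results of these data known. Named regions were those of both libraries of 1 population alone, of pc-BMACs and plasma cells without immature B cells, or at the promoter, and for lists up to 4 genes with most regions. The regions named beside them, the width ranks and the midpoint of Hivep3 were chosen after values were seen. Alternatives were a cover of 50%, lists cut to the widest 34070 peaks, peaks cut to 100 bp either side of the centre, regions inside the gene alone, pairs with the same R number, and leaving out each library.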

Additional observations from a re-analysis of the deposited data

How the results depend on the processing

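The 12 Hivep3 regions of pc-BMACs alone numbered 11 to 13 under the other overlap, list length, peak width and assignment rules. They numbered 12 to 17 when 1 library was left out. The 10 before the midpoint numbered 8 to 11 in all. With lists of equal length 11 of the 12 were overlapped by such a region, with cut peaks 12 and with a cover of 50% 10. Regions called in pc-BMACs and not in plasma cells numbered 16 to 29 when a library was left out, those of the reverse 3 to 5, immature B cells and not pc-BMACs 9 to 18, and immature B cells and not plasma cells 11 to 19. Without a library of the populations compared, fewer libraries had to call a region or to lack a call. Apart from the new merging of regions, such counts could only stay or rise, so their lower ends show no stability. Without a library of another population, only the merging changed. Cutting peaks to 100 bp either side gave 8 regions of plasma cells and not pc-BMACs and 14 of immature B cells and not pc-BMACs. Equal lists gave 5 of immature B cells and not pc-BMACs and 6 of immature B cells and not plasma cells. A cover of 50% gave 5 of plasma cells and not immature B cells, and 4 in place of 7 regions of pc-BMACs and plasma cells alone. The cause of these moves was not tested. The balance of Hivep2 between pc-BMACs and plasma cells, -1, lay between -3 and 1 when a library was left out and became 1 without pc-BMACs 2 or plasma cells 2.

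No paired analysis was possible because calls allow no fit and nothing ties equal replicate numbers to 1 animal. In the 1 pair per comparison with the same R number (replicate block), the counts were 22 for pc-BMACs and not plasma cells and 7 for the reverse, 34 for pc-BMACs and not immature B cells and 18 for the reverse, and 12 for plasma cells and not immature B cells and 16 for the reverse. Unknown depth limits every absence of a call.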
